A study of Mus musculus with 4 samples.

Results

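Annexins are a family of calcium-regulated proteins, and the 9 genes described here are 8 annexin genes measured in a mouse macrophage line (Anxa1, Anxa2, Anxa3, Anxa4, Anxa5, Anxa6, Anxa7 and Anxa11) and Ahnak, the gene of a giant scaffold protein that joins the annexin A2 complex at the plasma membrane. They were taken by symbol from the 21523 identifiers of the deposited table, and all 9 had a row and entered the test. The family was chosen by its FPKM differences between 1,5-AG and control in these same libraries, so its levels and differences describe these genes and support nothing further. RAW264.7 is an established macrophage-like line raised from a virus-induced mouse tumour. The 4 libraries form 2 groups of 2: cells labelled as having no treatment, and cells given 0.5 mM 1,5-anhydroglucitol (1,5-AG), a polyol close to glucose in structure, for 24 h. All 4 came from cells kept in DMEM with fetal bovine serum and antibiotics. The labels give no culture time for the controls. Whether replicates came from separate cultures is not in the labels either, and the p-values below therefore cover spread among 4 libraries that may be technical in origin.

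Each annexin carries a conserved core of repeats that binds negatively charged membrane phospholipid when calcium is present, and a variable N-terminal tail that sets its partners. Annexin A2 pairs with the small protein S100A10, and the pair binds AHNAK and carries plasminogen at the cell surface. Annexin A1 inhibits inflammatory signalling in leukocytes through formyl peptide receptors, and in macrophages several annexins take part in phagocytosis, vesicle traffic and repair of membrane wounds.

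The libraries held 14616556 to 16228673 gene-assigned fragments, as recovered from the deposited FPKM (fragments scaled to exon length and library size). For 2 kb of exon, a count of 3 fragments was worth 0.0924 to 0.103 FPKM, a floor for counting error only. The macrophage markers Cd68, Csf1r, Adgre1, Lyz2 and Ptprc were present in every library, and each was lower in both 1,5-AG libraries than in both controls. Cd68 had 499.6 and 498 FPKM in control and 472 and 479 FPKM with 1,5-AG. Their summed level was 5347 and 5220 FPKM in control and 3836 and 3752 FPKM with 1,5-AG, most of it from the lysozyme gene Lyz2. Summed markers of neutrophils, fibroblasts, epithelium and endothelium stayed at or below 0.517 FPKM, and those of T cells at or below 1.37 FPKM. Of the B cell markers, Ighm, the immunoglobulin mu heavy chain gene, had 49.1 and 53.5 FPKM in control and 37.9 and 39.6 FPKM with 1,5-AG, while Cd79a was at or below 0.188 FPKM in all 4 libraries. The part of these marker levels in the results below was not tested. In bulk RNA, fewer cells of a type and less RNA per cell cannot be told apart.

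The order of the 9 genes by FPKM, a level per exon length, was the same in all 4 libraries. Anxa5, which binds exposed phosphatidylserine, led with 362 and 367 FPKM in control and 371 and 383 FPKM with 1,5-AG. Anxa2, Ahnak, Anxa1, Anxa4, Anxa6, Anxa7, Anxa3 and Anxa11 followed in that order. Within each group no range of a gene met that of its neighbour in the order. In control, Anxa2 had a mean of 157 ± 9.18 FPKM and Ahnak, next in the order, 137 ± 7.82 FPKM (SD, n = 2 per group throughout). Anxa5 took 44.4% to 45.8% of the summed FPKM of the 9 genes in control and 51.4% to 51.5% with 1,5-AG. Ahnak, lower per length than Anxa2, gave more fragments than any annexin, since its exons span 19938 bases. Its share of all gene-assigned fragments was 0.262% and 0.284% in control and 0.180% and 0.185% with 1,5-AG.

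**Figure D1:**
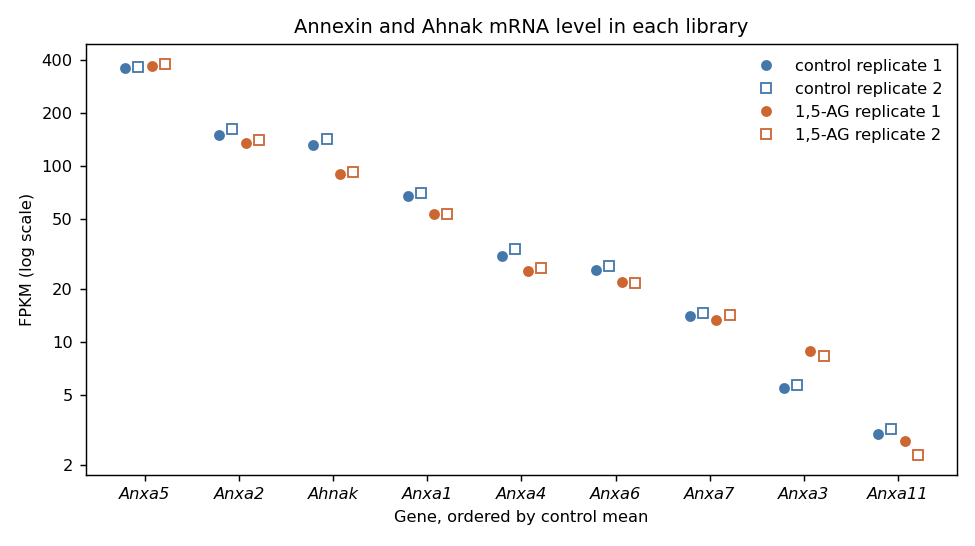
FPKM on a log axis of the 9 genes, ordered by control mean, with 1 point per library (blue control, orange 1,5-AG; filled circles replicate 1, open squares replicate 2). The 1,5-AG points lie below both control points for 6 genes, above them for Anxa3 and Anxa5, and overlap them for Anxa7.

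Ahnak and Anxa1 fell and Anxa3 rose with 1,5-AG, and the other 6 genes did not pass the test. The counts, 2 lower and 1 higher of 9, stand beside 1.46% of 11120 tested genes called in either direction, 0.647% lower and 0.809% higher. The test was limma across all tested genes, adjusted by the Benjamini-Hochberg method at a threshold of 0.05, on differences of log2(FPKM + 1). By sign, 7 of the 9 differences were negative, and their median was -0.23, against 5656 negative differences and a median of -0.0025 over all tested genes. In 6 genes both 1,5-AG libraries lay below both controls, which held for 25.4% of tested genes. In 2 genes both lay above, which held for 24.2%. Each of the 3 calls was lost when any 1 library was left out, with adjusted p of 0.091 to 0.106 for Ahnak, 0.0963 to 0.14 for Anxa1 and 0.116 to 0.136 for Anxa3, and their differences kept their sign. The calls were also lost without a filter on low values and without the variance trend.

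**Figure D2:**
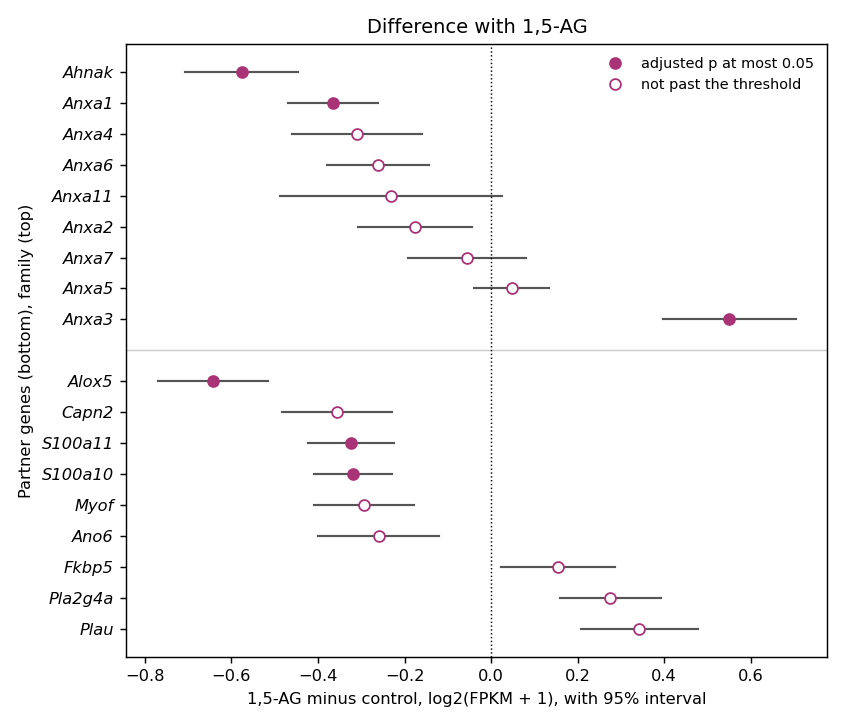
Difference in log2(FPKM + 1), 1,5-AG less control, with its 95% interval from limma, for the 9 family genes (top) and 9 partner-list genes (bottom). Filled points passed an adjusted p of 0.05: Ahnak (-0.58), Anxa1 (-0.36) and Anxa3 (0.55) above, and Alox5 (-0.64), S100a11 (-0.32) and S100a10 (-0.32) below.

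The upstream sequences of 3 genes are shown because they set the scaffold that fell, its annexin partner and the most abundant annexin side by side. Promoter windows from RefSeq (GRCm38.p6, the 250 bases before a start site) were matched for 7 of the 9 genes, all but Anxa3 and Anxa6. The printed stretches leave out bases that GENCODE M21 places in exons. Capitals mark matches on either strand to any of 4 motifs. The letters searched were GGGCGG for the GC box. For the AP-1 site they were TGANTCA, where N is any base. The TATA element was searched as TATAAA, and the remaining motif was CCAAT.
Ahnak, chr19:8989034-8989283, plus strand: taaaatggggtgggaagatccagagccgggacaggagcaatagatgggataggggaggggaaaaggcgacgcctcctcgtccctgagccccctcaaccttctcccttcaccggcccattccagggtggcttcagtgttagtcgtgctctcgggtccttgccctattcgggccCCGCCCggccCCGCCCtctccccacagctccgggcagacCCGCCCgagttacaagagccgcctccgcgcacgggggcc
Anxa2, chr9:69453433-69453619, plus strand: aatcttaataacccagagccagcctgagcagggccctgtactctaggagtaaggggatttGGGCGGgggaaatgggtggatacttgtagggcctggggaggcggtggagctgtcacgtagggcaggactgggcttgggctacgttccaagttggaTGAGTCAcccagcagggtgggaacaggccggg
Anxa5, chr3:36475895-36476137, minus strand: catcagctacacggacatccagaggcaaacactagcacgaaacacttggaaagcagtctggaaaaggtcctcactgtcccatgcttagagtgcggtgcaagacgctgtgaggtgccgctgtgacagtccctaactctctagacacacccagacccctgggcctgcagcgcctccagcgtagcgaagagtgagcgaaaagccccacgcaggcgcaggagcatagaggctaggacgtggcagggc
The Ahnak window held 3 GC boxes and none of the other motifs, with a GC content of 66.4%. The window of Anxa11, which did not pass the test, also held 3 GC boxes and none of the other motifs. Among other genes that did not pass, the Anxa7 windows held 4 and 1 GC boxes and the Anxa4 windows none. The printed Anxa2 stretch held 1 GC box and 1 AP-1 site, and in the full window, with the 63 bases inside an annotated exon, there were 3 GC boxes and 1 TATA box. The Anxa5 stretch held no match. A GC box occurred in 32.7% of the 32851 promoter windows of this length, an AP-1 site in 6.75%, a TATA box in 12.4% and CCAAT in 33.9%. All 250 bases of the Anxa1 window lie in an annotated exon, so it is not printed. It held 1 TATA box and no GC box. These matches describe letters in a window and are not evidence of binding.

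Ahnak lies on chromosome 19 (8989284 to 9076914, mm10, plus strand), and a single exon block of 17498 bases makes up 87.8% of its exon length. It had 132 and 143 FPKM in control and 90.1 and 92.9 FPKM with 1,5-AG, from 39760 and 46130 fragments against 26244 and 28006. Both 1,5-AG libraries were far below both controls, and the 2 controls were further apart from each other than the 1,5-AG pair. The mean went from 137 ± 7.82 to 91.5 ± 2.04 FPKM, a ratio of 0.668. The log2 difference was -0.58 (SE 0.05, adjusted p = 0.0221).

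Anxa2, on chromosome 9 (69453620 to 69491795, plus strand), encodes the annexin that assembles with S100A10 and AHNAK. It had 150 and 163 FPKM in control and 136 and 141 FPKM with 1,5-AG. The groups did not overlap, but the gap between them was no larger than the distance between the controls. Its log2 fold change of -0.18 (95% interval -0.31 to -0.04) did not pass the test (adjusted p = 0.179). It passed with limma voom on the recovered fragments (adjusted p = 0.009), which called 8.29% of genes.

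S100a10, the gene of the annexin A2 light chain, lies on chromosome 3 (93555080 to 93564643). Control libraries had 240 and 233 FPKM and 1,5-AG libraries 191 and 188 FPKM, a fall with no overlap (log2 difference -0.32, SE 0.04, adjusted p = 0.033). The ratio of Ahnak to Anxa2 within a library was 0.876 and 0.874 in control and 0.662 and 0.660 with 1,5-AG. The 2 libraries of a group were nearly equal in this ratio and the groups stood apart. The ratio of Ahnak to S100a10 was 0.547 and 0.612 in control and 0.471 and 0.495 with 1,5-AG, a smaller separation. The ratio of Anxa2 to S100a10 was 0.624 and 0.700 in control and 0.712 and 0.749 with 1,5-AG, so the groups came close to meeting. These ratios describe 4 libraries and were not tested. As Ahnak was called lower and Anxa2 differed less, the Ahnak to Anxa2 ratio follows from those differences and adds nothing to them.

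**Figure D3:**
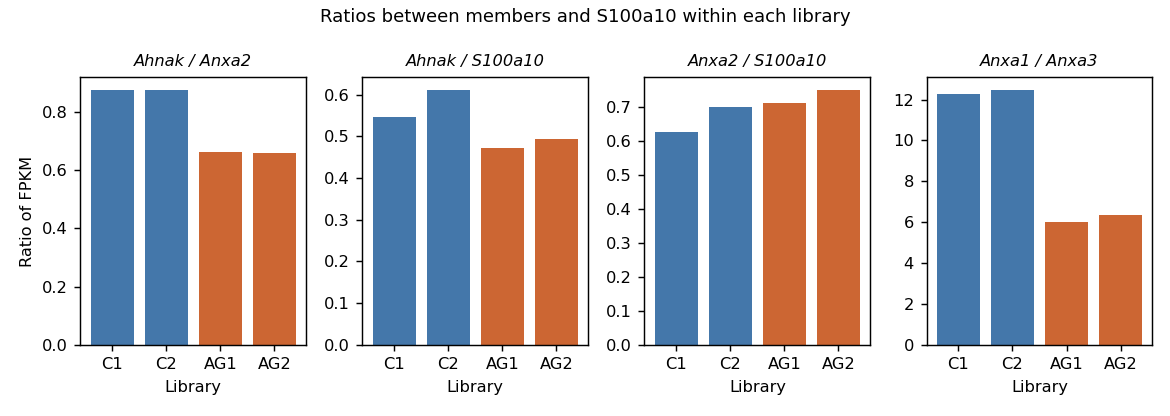
Ratios of FPKM within each library (C1 and C2 control, AG1 and AG2 1,5-AG; axes start at 0). The Ahnak to Anxa2 ratio is 0.874 to 0.876 in control and 0.660 to 0.662 with 1,5-AG, and the Anxa1 to Anxa3 ratio is 12.3 to 12.5 against 6.01 to 6.37.

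Anxa1, on chromosome 19 (20373428 to 20390944, minus strand), encodes the annexin known as a mediator of glucocorticoid action and of the resolution of inflammation. It had 67.6 and 70.7 FPKM in control and 53.6 and 53.3 FPKM with 1,5-AG, from 2985 and 3340 fragments against 2282 and 2346. The 1,5-AG libraries were nearly equal and lay below both controls. The means were 69.2 ± 2.18 and 53.5 ± 0.217 FPKM, a log2 difference of -0.36 (SE 0.04, adjusted p = 0.033).

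Anxa3, on chromosome 5 (96793339 to 96845966, plus strand), is the annexin abundant in neutrophils, where it associates with granules. It had 5.50 and 5.67 FPKM in control and 8.92 and 8.37 FPKM with 1,5-AG, from 304 and 335 fragments against 475 and 461. Both 1,5-AG libraries were above both controls, and the mean was 5.58 ± 0.115 FPKM in control and 8.65 ± 0.387 FPKM with 1,5-AG. The log2 difference was 0.55 (SE 0.06, adjusted p = 0.033). Of the neutrophil markers, S100a8 had 0.285 and 0.266 FPKM in control and 0.394 and 0.286 FPKM with 1,5-AG, and Elane 0.201 and 0.2505 FPKM in control and 0 and 0.0672 FPKM with 1,5-AG. For S100a8 the groups all but met, at 0.286 FPKM with 1,5-AG replicate 2 and 0.285 FPKM in control replicate 1. For Elane the 1,5-AG libraries were below the controls. Both genes were at low levels that rest on few fragments, and their part in the Anxa3 result was not tested. The Anxa1 to Anxa3 ratio of 12.3 and 12.5 in control was 6.01 and 6.37 with 1,5-AG. As Anxa1 was called lower and Anxa3 higher, this ratio follows from those calls and adds nothing to them.

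Anxa4 and Anxa6 lay lower with 1,5-AG in every library pair but did not pass. Anxa4, on chromosome 6 (86736840 to 86793584, minus strand) and known for its part in membrane repair, had 30.7 and 33.7 FPKM in control and 25.3 and 26.3 FPKM with 1,5-AG. Its log2 fold change was -0.31 (95% interval -0.46 to -0.16, adjusted p = 0.0889). Anxa6, on chromosome 11 (54979108 to 55033445, minus strand), encodes the annexin with a doubled core, which acts in endosome and cholesterol traffic. It had 25.6 and 26.9 FPKM in control and 21.9 and 21.6 FPKM with 1,5-AG, with a log2 fold change of -0.26 (95% interval -0.38 to -0.14, adjusted p = 0.0801). Both passed with voom, in genes with a mean of at least 5 FPKM, where 4.8% were called, and among protein coding genes alone, where 4.36% were.

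Anxa5, on chromosome 3 (36448923 to 36475894, minus strand), had the narrowest interval of the family: its log2 fold change was 0.05 (95% interval -0.04 to 0.13, adjusted p = 0.525), with the 2 groups just apart. Anxa7 and Anxa11 are the annexins with long tails. Anxa7, on chromosome 14 (20455260 to 20480133, minus strand), had 14.1 and 14.6 FPKM in control and 13.3 and 14.2 FPKM with 1,5-AG, and its groups overlapped (log2 fold change -0.06, 95% interval -0.19 to 0.08). Anxa11, on chromosome 14 (25842156 to 25886804, plus strand), which links RNA granules to lysosomes, had 3.01 and 3.19 FPKM in control and 2.73 and 2.27 FPKM with 1,5-AG. With 142 to 214 fragments per library it was the least precise of the 9, with a 95% interval of -0.49 to 0.03 around -0.23.

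The sum of the 8 annexins was 659 and 685 FPKM in control and 633 and 649 FPKM with 1,5-AG, so the groups lay close together. Anxa5 held 55.0% and 53.6% of that sum in control and 58.7% and 58.9% with 1,5-AG. With Ahnak added the sum was 790 and 828 FPKM in control and 723 and 742 FPKM with 1,5-AG.

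Anxa9, an annexin that lacks the usual calcium sites, was read from the same table. Anxa8, Anxa10 and Anxa13 were sought by symbol and had no match among its identifiers. The control levels of Anxa9, 5.54 and 5.53 FPKM, lay within those of Anxa3. With 1,5-AG it had 4.36 and 5.84 FPKM, a spread that took in both controls (log2 fold change -0.11, 95% interval -0.43 to 0.21).

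Sequence shared with other genes limits some of these values. Of the 50-base words in the annotated transcripts of Anxa1, Anxa5, Anxa6, Anxa7, Ahnak and S100a10, none occurred in transcripts of another gene, on either strand. The shared part was 1.35% for Anxa2, 1.79% for Anxa3 and 1.37% for Anxa4. For Anxa11 it was 16.2%, mostly with the pseudogene Gm2260, which had at most 0.625 FPKM in any library. For S100a11, a partner of annexin A1, it was 41.1%, with processed pseudogenes. Of these Gm7665 had 36.6 and 36.9 FPKM in control and 35.7 and 24.5 FPKM with 1,5-AG (log2 fold change -0.30, adjusted p = 0.422), and Gm12854 had 19.1 and 25.5 FPKM in control and 23.5 and 21.2 FPKM with 1,5-AG (0.01, adjusted p = 0.975). The values of Anxa11 and S100a11 are therefore uncertain. The genes that overlap Anxa2, Anxa3, Anxa4 and Anxa11 and were analysed, Gm16144, Gm42603, Gm44036 and Anxa11os, had at most 0.820 FPKM in any library.

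Lists of genes that work with annexins, 82 genes in all, were read from the same fit, in which 53 were tested. Of these 3 fell, 0 rose and 50 did not pass, with a median log2 fold change of -0.07. Over all tested genes 0.647% were called lower and 0.809% higher. By sign 38 of the 53 were negative, against 5656 of 11120 tested genes. The lists were written with earlier results of these libraries known. Of 9 S100 and scaffold partners 5 were tested, all 5 were negative, and S100a10 and S100a11 fell. S100a11 had 295 and 310 FPKM in control and 242 and 241 FPKM with 1,5-AG (log2 fold change -0.32, SE 0.04, adjusted p = 0.037). S100a10 and S100a11 are close neighbours on chromosome 3, S100a11 at 93520488 to 93526287. S100a6, which also binds annexins, did not pass (-0.15, adjusted p = 0.168). Both S100 calls were lost when any 1 library was left out, with adjusted p of 0.126 to 0.147 for S100a10 and 0.0971 to 0.156 for S100a11.

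The list of annexin A1 receptors and resolution enzymes had 2 tested members of 8. The formyl peptide receptor genes Fpr1, Fpr2 and Fpr3 were sought by symbol, had no match among the 21523 identifiers, and were not tested. Alox5, the 5-lipoxygenase that starts leukotriene synthesis and also makes precursors of lipoxins, had 19.5 and 19.1 FPKM in control and 12.3 and 11.7 FPKM with 1,5-AG. It fell by 0.64 on the log2 scale (SE 0.05, adjusted p = 0.0209). The other tested gene, Alox5ap, which presents arachidonic acid to that enzyme, had -0.36 (adjusted p = 0.0785). The Alox5 call was lost with any 1 library left out (adjusted p 0.0797 to 0.106).

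In the other 6 lists no member passed the limma test, and the member with the smallest p is named for each. Of 7 penta-EF-hand proteins, calcium-binding partners of annexins A7 and A11 and the calpains, Capn2, a calpain protease, had 12.7 and 12.5 FPKM in control and 9.47 and 9.78 FPKM with 1,5-AG (-0.36, adjusted p = 0.0504). Among 11 tested plasma membrane repair genes, 8 negative, Myof, the gene of the ferlin myoferlin, had -0.29 (adjusted p = 0.0598). Plau, the urokinase that activates plasminogen, had 10.7 and 11.1 FPKM in control and 13.8 and 14.4 FPKM with 1,5-AG (0.34, adjusted p = 0.0605). Of the 4 tested plasminogen genes 3 were positive, among them Eno1 at only 0.03. Over all 11120 tested genes 5464 differences were positive and 5656 negative, so signs in such short lists are not read further. Among 8 tested calcium-dependent phospholipid-binding proteins, Pla2g4a, the cytosolic phospholipase that releases arachidonic acid, had 0.28 (adjusted p = 0.0702). Of 10 tested genes of phosphatidylserine exposure and binding, 7 were negative, and Ano6, a scramblase, had -0.26 (adjusted p = 0.101). Of 6 tested glucocorticoid-responsive genes, 4 were negative, and Fkbp5 had 0.15 (adjusted p = 0.218). At an unadjusted p under 0.05, 18 of the 53 genes of all lists would count, against 2023 of 11120 tested genes.

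The genes with the most similar profile were sought among 9430 protein coding genes, as the distance between log2(FPKM + 1) values over the 4 libraries, centred on the control mean. For Anxa1 these were Dock5 (distance 0.0265), Gpnmb (0.0270) and Btbd2 (0.0340). Gpnmb, a lysosomal glycoprotein gene of macrophages, fell with a log2 fold change of -0.37 (adjusted p = 0.0244), while Dock5 (-0.35) and Btbd2 (-0.34) did not pass. The Gpnmb call was likewise lost with any 1 library left out (adjusted p 0.0949 to 0.123). For Anxa2 they were Mpeg1 (0.00794), a pore-forming protein gene of macrophages, Ppm1h (0.0172) and Plekha2 (0.0173), which had -0.17, -0.17 and -0.16 and did not pass. With 4 libraries many genes have similar profiles. Because these genes were picked on the same values, the direction and size of their differences follow from the choice and add nothing.

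**Figure D4:**
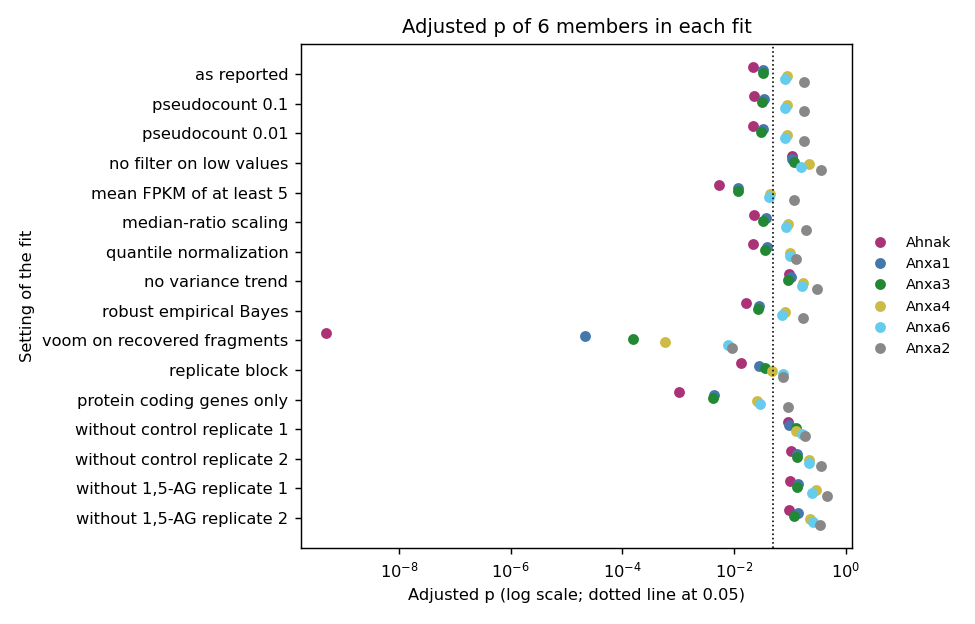
Adjusted p on a log axis of Ahnak, Anxa1, Anxa3, Anxa4, Anxa6 and Anxa2 under each setting of the fit, with a dotted line at 0.05. Ahnak, Anxa1 and Anxa3 lie right of the line without a filter, without the variance trend and in all 4 fits with 1 library left out.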

How the data were processed

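The 4 stranded mRNA libraries of RAW264.7 cells were made from Trizol RNA, per the labels' protocols. The values the authors deposited are FPKM, 1 column per library; Trimmomatic, HISAT2, Cufflinks, HTSeq and the build mm10 come from the submitters' processing notes, while the sources used here give no version, role or strand setting. Because FPKM values are relative, abundant genes that change can shift the rest. Of 21523 Ensembl identifiers 21508 matched GENCODE M21 (same build). FPKM times merged exon length gave whole fragments in all 4 libraries for 99.4% of genes (tolerance 0.02 fragments). Of rows sharing a symbol the highest was kept, which left out 8.

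Differences were tested two-sided with limma 3.58.1 (R 4.3.3, variance trend) on log2(FPKM + 1), group as the only term, for genes with a mean of at least 1 FPKM. This scale understates changes of low genes. An exact permutation test was not used, as 2 against 2 libraries allow no small p. The members and lists were chosen with earlier results of these data known. Named were all 9 members, the other annexins, S100a10, S100a11, the formyl peptide receptors, called list members or the one with the smallest p, the nearest profiles, and overlapping genes; Alox5ap, S100a6 and the pseudogenes were chosen after their values were seen. The ratios of Ahnak to Anxa2 and of Anxa1 to Anxa3 were not in the plan. The planned protein comparison was not made, as protein sequences were not used here.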

Additional observations from a re-analysis of the deposited data

How the results depend on the processing

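All alternatives were listed in advance with earlier results known. Over all genes 162 passed. That count was 0 without a filter (2628 at unadjusted p under 0.05 by limma), 360 at a mean of at least 5 FPKM, 5 without the variance trend, 917 with voom, 412 among protein coding genes and 2 to 11 with 1 library left out. Of the 9 family genes 3 passed; 0 did without a filter and without the variance trend (6 and 7 at unadjusted p under 0.05), 5 at a mean of at least 5 FPKM (4.8% of genes called) and among protein coding genes, 6 with voom, and 0 with any 1 library left out. Of the list genes 3 passed; 0 did without a filter and without the variance trend (20 and 16 at unadjusted p under 0.05), 8 at a mean of at least 5 FPKM, 11 with voom, 9 among protein coding genes, and 0 with any 1 library left out. Calls rose over all genes in the same fits: 4.8% of genes tested at a mean of at least 5 FPKM, 8.29% with voom and 4.36% among protein coding genes. Fewer genes or libraries are part of some settings, and otherwise the cause was not tested. At an unadjusted p under 0.05 by limma, 2628 of 21515 genes would count without a filter. Without the variance trend 1853 of 11120 would. Those fits held 9 family genes each, and 70 list genes without a filter and 53 without the variance trend. With 1 library left out, the lone sample is assumed to vary like the other group. With the replicate block 310 genes passed, 4 of them in the family (Anxa4 gained) and 4 in the lists (Plau gained); same-numbered libraries' deviations correlated at 0.0124, and the labels do not say that numbers mark a shared culture. Over 25 named genes and 15 fits, 299 values stayed on the same side of the threshold, 42 dropped below it, 31 moved past it, and 1 changed sign: Anxa9 ran from -0.29 without 1,5-AG replicate 2 to 0.067 without 1,5-AG replicate 1. Anxa11 had 142 to 214 fragments per library and Anxa9 132 to 186, and the part of counting error in their spread was not tested.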

Other observations

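No gene tested within 500 kb of any of the 9 genes was called, where 1.46% of all 11120 tested genes were. With so few neighbours a count of 0 lies near that share, and nothing is read from it. Within 500 kb of Ahnak 28 other genes were tested, with 0 called by limma and a median log2 fold change of -0.0065. Within the same distance of Anxa3 there were 7 tested genes, 0 called, and a median of -0.0092, and within it of Anxa1 no other gene was tested. The 16 genes near Anxa4 and the 11 near Anxa6 also had 0 called, with medians of -0.0067 and -0.02.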
